A study of Mus musculus with 12 samples.

Results

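The genes described here are 9 transcripts used as markers of gamma delta T cells and type 17 lymphocytes, out of 18992 genes listed in the tables. There are 4 antigen receptor genes, *Trdc*, *Tcrg-C1*, *Tcrg-C2* and *Tcrg-V6*, and 5 genes of the type 17 program, *Il17a*, *Il23r*, *Il1r1*, *Cd163l1* and *Zbtb16*. They were chosen from earlier results of the same data, on their measured levels in the clusters and libraries below, so these levels are a description and were not tested. All 9 had at least 1 UMI in each library from 28 weeks, and 7 had one in the 12-week library, where *Il17a* and *Il1r1* had 0.

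Cells sorted as PD-1+CD44+CD8+ T cells came from female NZB/W F1 mice, the offspring of NZB and NZW mice, which develop lupus nephritis as they age. The groups were 12W spleen, from mice aged 12 weeks, before disease, and 28W spleen and 28W kidney, from mice aged 28 weeks, with advanced nephritis. The labels list 12 samples, 4 per group, but each group's table pools them, so every group is 1 library without replicates and values per sample or per mouse are not given here. Kidney was digested with collagenase before sorting and no digestion of spleen is described, so organ and digestion cannot be told apart in the comparison of kidney with spleen. The libraries held 6894, 6481 and 7135 cells in 10, 11 and 12 clusters made by the authors, with 34742303, 32023473 and 29937384 UMIs (unique molecular identifiers, each tagging 1 captured transcript), with the 12W spleen first, then the 28W spleen, then the 28W kidney, the order kept below. Pairs of libraries shared 52 to 66 cell barcodes. Of the transcripts behind the sort, *Cd8a* and *Cd8b1* together reached 1464, 1503 and 1856 counts per 1000000 UMIs (CPM) in the same order. *Pdcd1*, which encodes PD-1, varied widely between clusters. It spanned 5.36 CPM in cluster 6 of 12W spleen (10 UMIs) to 229 CPM in cluster 6 of 28W kidney. *Cd44* spanned 19.3 CPM in cluster 6 of 12W spleen to 148 CPM in cluster 11 of 28W spleen. Levels below are UMIs and CPM with exact 95% Poisson intervals in brackets, which cover counting error only. Because cluster means were deposited rather than cells, more cells with a transcript and more transcript per cell cannot be told apart.

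Gamma delta T cells carry an antigen receptor built from a gamma chain and a delta chain, while conventional CD8+ T cells carry an alpha beta receptor. Each gamma or delta chain joins a rearranged V segment to a constant region. Some gamma delta T cells are poised in the thymus to secrete interleukin 17 and respond quickly to interleukin 23 and interleukin 1 without a preceding antigen encounter. Cells with a V gamma 6 chain, usually paired with the delta chain of *Trdv4*, belong to this type 17 branch, arise in fetal life and settle in barrier and other tissues.

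The gamma chain genes lie together on GRCm38 chromosome 13 and the delta constant gene on chromosome 14. *Tcrg-C1* spans chr13:19214103-19217024 on the plus strand and *Tcrg-C2* chr13:19304649-19307551 on the minus strand, each with 3 exons. The coding starts of the 4 gamma constant genes are shown because their likeness bears on how reads could be assigned. They are the first 120 bases of exon 1 (coding) in GENCODE M21, 5′ to 3′, with capitals where a base differs from *Tcrg-C1*.
Tcrg-C1, chr13:19214103-19214222, plus strand: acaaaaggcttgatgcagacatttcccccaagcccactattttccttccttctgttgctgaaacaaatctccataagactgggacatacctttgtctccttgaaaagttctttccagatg
Tcrg-C2, chr13:19307432-19307551, minus strand: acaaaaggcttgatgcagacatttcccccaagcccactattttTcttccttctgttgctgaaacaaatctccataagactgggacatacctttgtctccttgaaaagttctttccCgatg
Tcrg-C3, chr13:19260885-19261004, plus strand: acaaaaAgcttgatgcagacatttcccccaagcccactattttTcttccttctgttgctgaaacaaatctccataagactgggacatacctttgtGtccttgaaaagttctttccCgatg
Tcrg-C4, chr13:19344558-19344677, plus strand: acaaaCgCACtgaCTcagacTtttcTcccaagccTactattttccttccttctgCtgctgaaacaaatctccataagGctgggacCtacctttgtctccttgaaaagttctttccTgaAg
Over the 330 bases of exon 1, *Tcrg-C1* and *Tcrg-C2* were 97.3% identical (9 differences) and shared an unbroken run of 71 bases, and *Tcrg-C1* and *Tcrg-C3* were 96.1% identical. *Tcrg-C4* stood further off, at 82.1% identity to *Tcrg-C1*. The split of UMIs between *Tcrg-C1* and *Tcrg-C2* is therefore uncertain where a read covers only shared bases.

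The V segments *Tcrg-V6* and *Trdv4*, whose shares were larger in kidney than in spleen, are shown by their last 120 coding bases, up to the junction, with capitals marking codons of the tyrosine, tyrosine, cysteine run that closes a V segment.
Tcrg-V6, chr13:19190810-19190929, plus strand: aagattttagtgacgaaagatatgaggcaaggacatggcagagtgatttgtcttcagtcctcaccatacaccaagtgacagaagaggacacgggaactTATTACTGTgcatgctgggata
Trdv4, chr14:54075396-54075515, plus strand: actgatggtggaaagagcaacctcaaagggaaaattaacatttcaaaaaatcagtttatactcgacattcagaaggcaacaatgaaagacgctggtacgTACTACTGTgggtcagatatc
*Tcrg-V6* (chr13:19190356-19190929) and *Trdv4* (chr14:54074905-54075515) have 2 exons each, and the stretches shown lie in the second. After the capitals, 13 bases remain in *Tcrg-V6* and 12 in *Trdv4* up to the end of the exon.

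Receptor genes did not move together between libraries, whereas all 5 type 17 genes had their highest level in 28W kidney. *Trdc*, the constant region of every delta chain (chr14:54142851-54148868, plus strand, 4 exons), had 856, 388 and 145 UMIs in the 12W spleen, the 28W spleen and the kidney. These are 24.6 CPM (23.0 to 26.3), 12.1 CPM (10.9 to 13.4) and 4.84 CPM (4.09 to 5.70), a descending order in which no intervals overlapped. The ratio of 28W spleen to 12W spleen was 0.492 (exact conditional binomial interval 0.435 to 0.555), and of 28W kidney to 28W spleen 0.40 (0.328 to 0.485). Delta V segments together had 2381, 918 and 1008 UMIs in the same order, so they did not fall from 28W spleen to kidney as *Trdc* did. *Trdc* alone is therefore not a measure of all delta chain transcripts here, and why the counts part was not tested.

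The gamma constant genes varied less. *Tcrg-C1* had 119, 68 and 128 UMIs, or 3.43, 2.12 and 4.28 CPM, in the same order of libraries. The 28W kidney and 12W spleen levels of *Tcrg-C1* did not differ beyond counting error (ratio 1.25, 0.965 to 1.62), and 28W spleen lay below both. *Tcrg-C2* had 227, 195 and 264 UMIs, or 6.53, 6.09 and 8.82 CPM, with both spleen libraries within counting error of each other and kidney 1.45-fold above 28W spleen (1.2 to 1.75). *Tcrg-V6*, a V segment of the type 17 branch, had 67, 37 and 292 UMIs, or 1.93 CPM (1.49 to 2.45), 1.16 CPM (0.814 to 1.59) and 9.75 CPM (8.67 to 10.9). It was 8.44-fold higher in 28W kidney than in 28W spleen (5.98 to 12.2), the opposite direction to *Trdc*.

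*Il17a*, which encodes interleukin 17A (chr1:20730905-20734496, plus strand, 3 exons), had 0, 2 and 58 UMIs. The 0 of the 12W spleen allows a level of up to 0.0864 CPM, the 28W spleen was at 0.0625 CPM (0.00756 to 0.226) and the kidney at 1.94 CPM (1.47 to 2.50), so the spleens could not be told apart at this depth. The ratio of 28W kidney to 28W spleen was 31.0 (8.21 to 262), its width set by the 2 spleen UMIs. *Il23r*, the receptor subunit specific to interleukin 23 (chr6:67422932-67491855, minus strand, 11 exons), had 8, 5 and 57 UMIs and was 12.2-fold higher in 28W kidney than in 28W spleen (4.93 to 39.0). *Il1r1*, the signalling receptor for interleukin 1 (chr1:40225080-40317257, plus strand, 11 exons), had 0, 7 and 30 UMIs, a 4.58-fold higher level in kidney than in 28W spleen (1.97 to 12.4). Both receptors were therefore also at the edge of detection in the spleens.

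*Cd163l1*, a scavenger receptor family gene used as a marker of interleukin 17 producing gamma delta T cells (chr7:140218267-140231145, plus strand, 14 exons), had 16, 5 and 105 UMIs, or 0.461, 0.156 and 3.51 CPM. Kidney was 22.5-fold above 28W spleen (9.33 to 70.6). *Zbtb16*, which encodes PLZF, a factor of innate-like T cells (chr9:48654297-48836222, minus strand, 7 exons), had 27, 7 and 31 UMIs and was 4.74-fold higher in kidney than in 28W spleen (2.05 to 12.7). It differed from the other type 17 genes in that 12W spleen (0.777 CPM) and kidney (1.04 CPM) were within counting error of each other (ratio 1.33, 0.770 to 2.32).

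**Figure D1:**
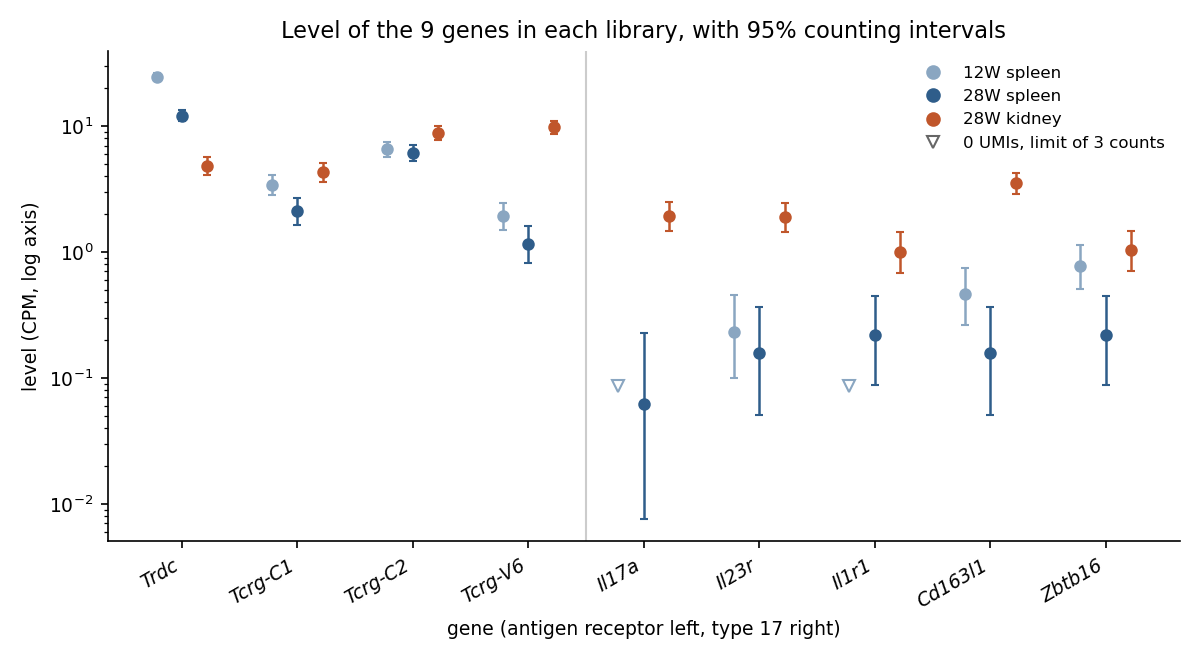
Level of each of the 9 genes in CPM (log axis) in each library, with 95% exact Poisson intervals as bars and open triangles at the limit of 3 counts where a gene had 0 UMIs. *Trdc* steps down from 24.6 to 4.84 CPM, whereas *Tcrg-V6* and the 5 type 17 genes are highest in 28W kidney.

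Summed over the 4 receptor genes, the level was 36.5 CPM (34.5 to 38.6), 21.5 CPM (19.9 to 23.2) and 27.7 CPM (25.8 to 29.6). The 5 type 17 genes summed to 1.47, 0.812 and 9.39 CPM, 11.6-fold more in 28W kidney than in 28W spleen (7.72 to 18.0). With age in spleen, 1 of 4 receptor genes (*Trdc*) and both type 17 genes that reached 20 UMIs over the spleens (*Cd163l1* at a ratio of 0.339 and *Zbtb16* at 0.281) were at least 2-fold lower and none was 2-fold higher. Among all 12412 genes with that many UMIs, 3.5% were at least 2-fold lower and 4.93% at least 2-fold higher. Between organs, 2 receptor genes (*Tcrg-C1* at 2.01-fold and *Tcrg-V6*) and 5 of 5 type 17 genes were at least 2-fold higher in kidney and 1 (*Trdc*) lower, against 15.3% higher and 2.91% lower of 13189 genes. Since the 9 genes were picked on such values, nothing is read from these counts. On a scale set by the median gene ratio, the log2 ratio of *Trdc* with age was -0.93 and that of *Tcrg-C1* between organs 0.92, so both fell short of 2-fold. The median log2 ratio of all genes was -0.10 with age and 0.12 between organs.

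Within the kidney, UMIs of most of these genes were concentrated in clusters 4 and 12 of the 12 clusters, numbered as deposited. *Cd163l1* had 67 of its 105 kidney UMIs in cluster 4 (786 cells), a level of 19.4 CPM (15.0 to 24.6) against 1.43 CPM in the rest of the library. *Il17a* had 39 of 58 there, 67.2% (exact binomial interval 53.7 to 79.0), in a cluster holding 11.5% of the library's UMIs. *Il23r* (23 UMIs, 6.66 CPM), *Tcrg-C1* (59 UMIs, 17.1 CPM) and *Trdc* (56 UMIs, 16.2 CPM) also had their highest kidney level in cluster 4, which makes 5 of the 9 genes. Counted as UMIs per cell, *Trdc* and *Il23r* had their highest level in cluster 12 instead. Of 12444 genes with at least 20 UMIs in kidney, 1.70% had their highest level in cluster 4.

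Cluster 12, the smallest with 184 cells, had the highest level of *Tcrg-V6* at 72.2 CPM (56.8 to 90.5, 75 UMIs), above the 37.9 CPM (31.7 to 45.0, 131 UMIs) of cluster 4, a ratio of 1.91 (1.41 to 2.55). *Il1r1* and *Zbtb16* were also highest in cluster 12, each with 8 UMIs or 7.70 CPM (3.33 to 15.2). For *Trdc*, *Tcrg-C1*, *Il17a*, *Il23r*, *Il1r1* and *Cd163l1*, the levels in clusters 4 and 12 did not differ beyond counting error. A highest level in cluster 12 is common, since 15.5% of kidney genes had it there. *Tcrg-C2* departed from this pattern, with its highest level in cluster 10 (25.8 CPM, 20 UMIs), followed by clusters 6 (23.3 CPM) and 3 (16.1 CPM), and 5.50 CPM in cluster 4. The order of clusters 10, 6 and 3 for *Tcrg-C2* was within counting error. Counted as UMIs per cell, *Tcrg-C2* was highest in cluster 11 instead (29 UMIs). Of the kidney clusters, cluster 10 had the highest level of *Trac*, the alpha chain constant gene (448 CPM). Cluster 6 had the highest sum of *Cd8a* and *Cd8b1* (2637 CPM).

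Outside clusters 4 and 12, the type 17 genes were sparse but not at 0. *Il17a* had 10 UMIs in cluster 8 (3.57 CPM), 1 each in clusters 2 and 7, and 0 in the other 7 clusters. *Il23r* had 15 UMIs in cluster 3 and *Cd163l1* 11 in cluster 9. *Tcrg-V6* had 42 UMIs in cluster 1, 18 in cluster 9 and 15 in cluster 3, against 0 in clusters 2, 6 and 10. Even if every UMI came from a different cell, *Il17a* would have been seen in at most 4.96% of the cells of cluster 4, *Cd163l1* in at most 8.52% and *Tcrg-V6* in at most 16.7%, and in cluster 12 *Tcrg-V6* in at most 40.8%. By this measure most cells of cluster 4 gave no UMI of any given one of the 9 genes.

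**Figure D2:**
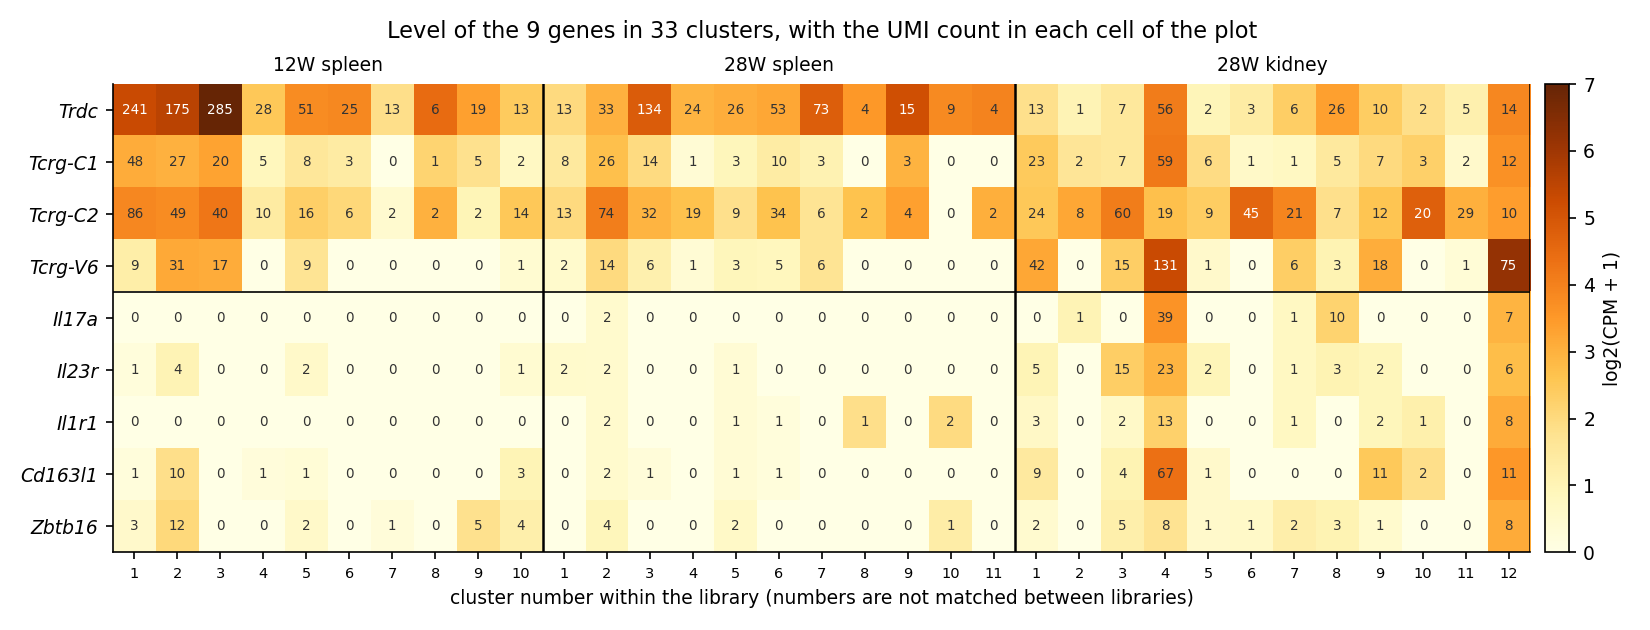
Level of the 9 genes (rows, receptor genes above the line and type 17 genes below) in each of 33 clusters (columns, grouped by library), coloured by log2(CPM + 1) with the UMI count printed in each field. Columns 4 and 12 of 28W kidney hold most type 17 UMIs, with 39 and 7 of 58 for *Il17a*, whereas *Trdc* is spread over every cluster of all libraries.

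Clusters 4 and 12 differed in what else they held. Cluster 4 had T cell and CD8 transcripts, with *Trac* (alpha chain constant region) at 260 CPM, *Cd3e* at 1506 CPM and *Cd8b1* at 1304 CPM. These levels lay within the range of the other kidney clusters, which is wide. *Trac* was at 281 to 448 CPM in clusters 1, 3, 6, 9, 10 and 11, above cluster 4. In clusters 2, 5, 7, 8 and 12 it was at 52.0 to 255 CPM. Cluster 12 had the lowest *Trac* (52.0 CPM), *Cd8a* (160 CPM) and *Cd8b1* (204 CPM) of all kidney clusters, and its 5 genes with the highest ratio to the rest of the library were *S100a8*, *Ngp*, *S100a9*, *Ltf* and *Lcn2*, which are known from neutrophils. All 6 myeloid markers (*Lyz2*, *Csf1r*, *C1qa*, *C1qb*, *Cd68*, *Fcer1g*) were at least 2-fold higher in 28W kidney than in 28W spleen, none was at 0 in any library, and their sum was 10996 CPM in cluster 12 against 11.6 to 72.4 CPM in the other kidney clusters, 28.1 CPM in cluster 4 among them. *Cd4* was at 20.2 CPM in cluster 12 and 2.60 CPM in cluster 4. Cluster 8, with 10 *Il17a* UMIs, had the highest sum of the 5 B cell markers (2675 CPM, against 148 CPM in cluster 4). The part of such cells in the levels of cluster 12 and cluster 8 was not tested, and doublets could not be called from cluster means.

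Of the 10 genes with the highest ratio of cluster 4 to the rest of the kidney library among those with at least 50 UMIs in it, ranked after the values of cluster 4 were seen, 4 were among the 9 genes (*Cd163l1*, *Tcrg-C1*, *Tcrg-V6* and *Trdc*, ratios 13.5, 6.55, 6.24 and 4.82). *Trdv4* was at 8.29-fold, *Ltb4r1*, a receptor for leukotriene B4, at 6.87-fold, and *Ccr6*, a chemokine receptor typical of type 17 lymphocytes, at 3.69-fold. The others were *Ly6g5b*, *Aqp3* and *Ramp1*. *Il17a*, at 15.7-fold, fell under the minimum with its 39 UMIs. The clusters were made from the same cells, so this list is a description. Cluster 4 is called by its number throughout, since it held alpha chain and CD8 transcripts as well as those of the 9 genes.

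**Figure D3:**
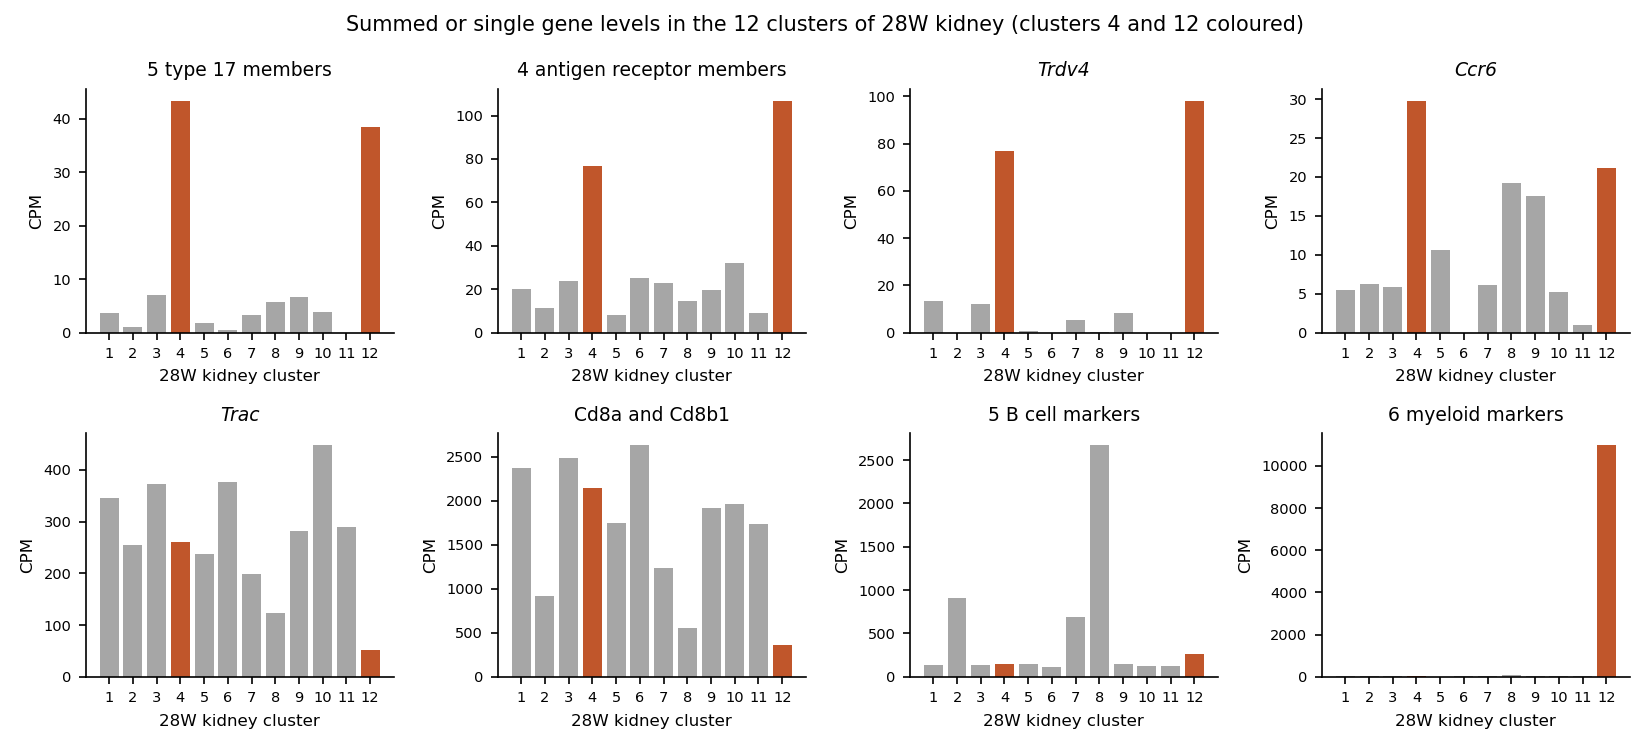
Bars give CPM in each of the 12 clusters of 28W kidney for the 5 type 17 genes summed, the 4 receptor genes summed, *Trdv4*, *Ccr6*, *Trac*, *Cd8a* with *Cd8b1*, and summed B cell and myeloid markers, each panel on its own scale from 0. Clusters 4 and 12 (coloured) reach 43.4 and 38.5 CPM of type 17 genes, and cluster 12 alone reaches 10996 CPM of myeloid markers.

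Clusters 4 and 12 together held 13.6% of the kidney cells and 15.0% of the UMIs, but 79.3% of *Il17a* UMIs (46 of 58), 74.3% of *Cd163l1*, 70.5% of *Tcrg-V6* and 70.0% of *Il1r1*. They held 48.3% of *Trdc* and 11% of *Tcrg-C2* UMIs. Without these clusters, which were left out after the data were seen, the kidney to 28W spleen ratio was 7.55 for *Il17a* (1.68 to 69.5), 7.05 for *Il23r* (2.69 to 23.4), 6.80 for *Cd163l1* (2.58 to 22.6) and 2.93 for *Tcrg-V6* (1.97 to 4.43). *Il1r1* (1.62, 0.536 to 5.11) and *Tcrg-C1* (1.06, 0.729 to 1.52) then no longer differed from spleen beyond counting error, and the interval of *Zbtb16* (2.70, 1.04 to 7.82) came close to 1. The ratio of *Trdc* was 0.243. The summed receptor genes turned from higher to lower, from 0.37 to -0.27 on the log2 scale. Clusters 4 and 12 had the highest receptor and type 17 sums of the kidney, while 28W spleen kept all of its clusters. A fall of these sums was therefore fixed in advance, and the values show only where the kidney UMIs lay.

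In 12W spleen, *Trdc* (126 CPM, 285 UMIs), *Tcrg-C1* and *Tcrg-C2* were highest in cluster 3, which had 33.3% of the library's *Trdc* UMIs in 6.49% of its UMIs. For *Tcrg-C1* and *Tcrg-C2*, the ratios of cluster 3 to cluster 1, the next in order, were 1.16 (0.65 to 2.0) and 1.30 (0.87 to 1.91), within counting error. Counted as UMIs per cell, another cluster was highest for each gene, holding 40.3% of the *Tcrg-C1* and 6.17% of the *Tcrg-C2* UMIs. The leading genes of cluster 3, ranked among those with at least 50 UMIs there, were *S100a9*, *Igkv6-23*, *Ighv8-8*, *Ighv1-55* and *Igkv8-24*. That cluster also had the highest sums of erythroid (37158 CPM), B cell (1117 CPM) and myeloid (387 CPM) markers of the library and 0 UMIs of every type 17 gene. The other 9 clusters had *Trdc* at 17.6 CPM together. As an alternative, the clusters highest in summed B cell, myeloid, erythroid or kidney tubule markers were left out (3 and 10 of the younger spleen, the latter by 5 UMIs of the tubule marker *Aqp1*, and 8 and 10 of the older). Without these clusters, the log2 ratio of *Trdc* with age was -0.64 in place of -1.02. Cluster 2 of 12W spleen (1118 cells) had the highest level of *Cd163l1*, *Zbtb16*, *Il23r* and the receptor gene *Tcrg-V6*, with 10 of 16, 12 of 27, 4 of 8 and 31 of 67 UMIs. For each of these 4 genes, its ratio to the next cluster was within counting error, as for *Tcrg-V6* against cluster 3 (1.06, 0.57 to 2.04). Counted as UMIs per cell, *Cd163l1*, *Zbtb16* and *Il23r* were highest in cluster 10 instead, on 3, 4 and 1 UMIs.

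In 28W spleen, *Trdc* was spread over all 11 clusters and highest per 1000000 UMIs in cluster 9 (34.3 CPM, 15 UMIs), though per cell in cluster 7 (73 UMIs), and the leading genes of cluster 9, among those with at least 50 UMIs there, were *Ccl5*, *Ccl4*, *Gzmk*, *Cxcr6* and *Gm45552*. *Tcrg-V6* (14 of 37 UMIs), *Tcrg-C2* (74 of 195) and both *Il17a* UMIs were highest in cluster 2, but no type 17 gene had more than 7 UMIs in the library. These leads were within counting error. Ratios to the next cluster were 1.23 for *Trdc* (0.67 to 2.11), 1.34 for *Tcrg-V6* (0.48 to 4.24) and 1.70 for *Tcrg-C2* (0.64 to 6.41). Counted as UMIs per cell, *Tcrg-V6* was highest in cluster 7 (6 UMIs). Cluster 2 of this library and clusters 3 and 7 each had at least 6 *Tcrg-V6* UMIs, so the segment was not limited to 1 cluster. In both spleen libraries the type 17 sum stayed at or below 6.71 CPM in every cluster, against 43.4 CPM in cluster 4 and 38.5 CPM in cluster 12 of the kidney.

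Segment use also differed between organs. Of the UMIs that fell on gamma V segments, *Tcrg-V6* took 3.56% (67 of 1884) and 2.86% (37 of 1292) in the younger and older spleens and 16.1% in kidney (292 of 1809, exact binomial interval 14.5 to 17.9). *Trgv2* was the most used gamma V segment in all libraries, at 59.7%, 63.0% and 56.9%. *Trdv4* took 1.34% and 1.74% of delta V UMIs in the spleens (32 of 2381 and 16 of 918) and 50.8% in kidney (512 of 1008, 47.7 to 53.9). Its level was 0.50 CPM in 28W spleen and 17.1 CPM in kidney, a ratio of 34.2 (20.9 to 60.3). *Trdv2-2*, the most used delta segment of the spleens, had the opposite order, at 34.2, 12.8 and 7.62 CPM, and *Trdv1* and *Trdv5* followed the same order.

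**Figure D4:**
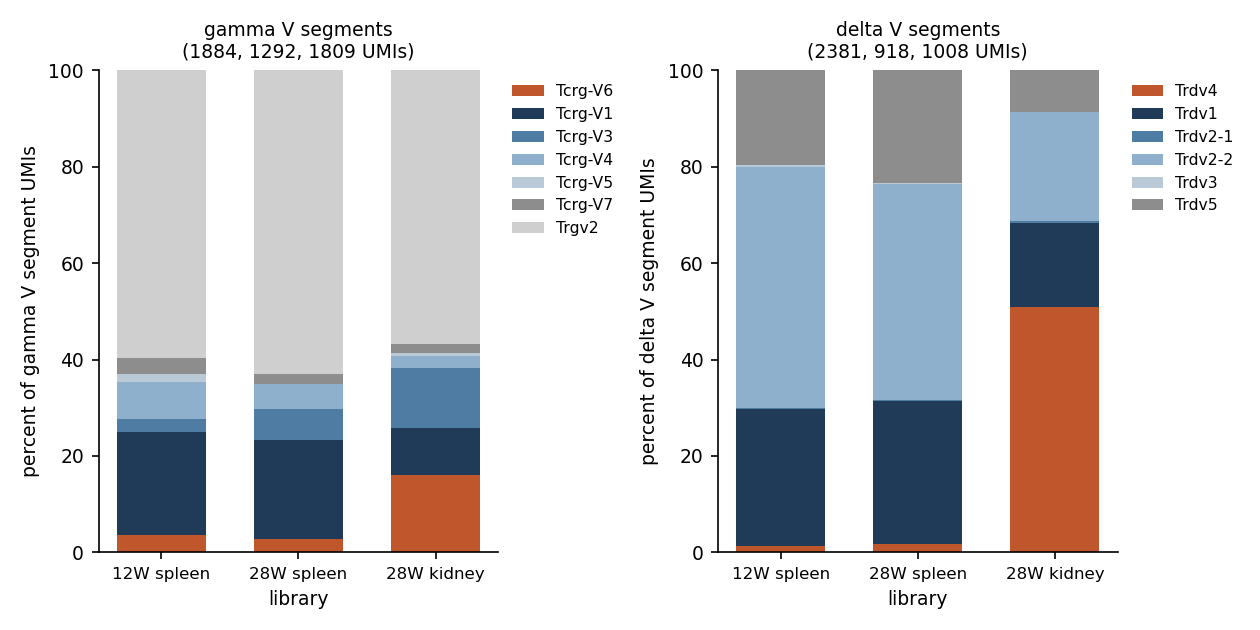
Stacked bars give the percent of gamma V (left) and delta V (right) segment UMIs taken by each segment in each library. *Tcrg-V6* takes 2.86% of 28W spleen and 16.1% of kidney UMIs, and *Trdv4* 1.74% and 50.8%.

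*Tcrg-V6* and *Trdv4* both took large shares in kidney clusters 12 and 4, but cluster means cannot show whether a cell used both. In cluster 12, *Trdv4* took 90.3% of delta V UMIs (102 of 113) and *Tcrg-V6* 58.6% of gamma V UMIs (75 of 128). In cluster 4 the shares were 73.9% (266 of 360) and 36.6% (131 of 358), with *Trgv2* still at 43.0% of gamma V UMIs. Clusters 1, 3 and 9 were intermediate, with *Trdv4* at 39.4%, 39.1% and 42.6% of delta V UMIs and *Tcrg-V6* at 12.6%, 6.41% and 19.1% of gamma V UMIs. Cluster 11, the proliferating cluster by its 8523 CPM of proliferation markers, had 1 *Tcrg-V6* UMI of 253. In the spleens the highest *Trdv4* shares with at least 5 UMIs were 8.16% in cluster 2 of 28W spleen (8 of 98), 5.32% in its cluster 6 (5 of 94) and 4.89% in cluster 2 of 12W spleen (22 of 450). *Tcrg-V3*, another gamma V segment, was 2.91-fold higher in kidney than in 28W spleen, but its highest kidney share was in cluster 11 (22.1%) and its share in cluster 4 was 4.47%, so it did not follow *Tcrg-V6*.

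Over the 33 clusters, the gene whose log2(CPM + 1) was most like that of *Tcrg-V6* was *Trdv4* (Pearson r 0.93), and *Rln3* (0.68) was also among the 3 most alike, from 11228 genes outside the 9 with at least 100 UMIs. Those most like *Cd163l1* included *Trdv4* (0.85) and *Rln3* (0.84). *Trdc* was most like *Tcrg-V4* (0.83), *Trdv5* (0.78) and *Arl5c* (0.72), and *Tcrg-C2* most like *Trgv2* (0.75), *Tcrg-C4* (0.75) and *Lpar6* (0.74). Among genes outside the 9, *Tcrg-C1* was most like *Arl4d* (0.68), *Trgv2* (0.66) and *Pea15a* (0.63). Among the 9 genes, taken without a minimum of UMIs, r was highest between *Tcrg-V6* and *Il23r* (0.82), *Il23r* and *Cd163l1* (0.80) and *Tcrg-V6* and *Cd163l1* (0.79). Between *Trdc* and *Tcrg-C2* it was 0.07. *Il23r* had only 8, 5 and 57 UMIs in the libraries. Clusters of a library share its preparation and depth and many values rest on a few UMIs, so these correlations are descriptions.

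Further genes of the pathway were taken from 5 lists holding 56 genes, of which 44 had at least 20 UMIs over 28W spleen and 28W kidney. Of the 44, 20 were at least 2-fold higher in kidney, 4 lower and 20 within 2-fold, with a median log2 ratio of 0.63 beside 0.12 for all genes, of which 15.3% were higher and 2.91% lower. With age in spleen, 11 of 42 were at least 2-fold higher, 9 lower and 22 within, with a median of 0.03 beside -0.10 and shares of 4.93% and 3.5% of all genes. The lists were chosen with earlier results of these data known, so nothing is read from these counts or from those of single lists below. Among 12 transcription factors and related regulators, 6 were higher in kidney and 1, *Sox4*, was lower (0.240-fold), against the same 15.3% and 2.91%. Among those higher, *Sox13*, a factor of gamma delta lineage programming, had 22, 5 and 33 UMIs (7.06-fold in kidney over 28W spleen, 2.74 to 23.2), and *Maf*, *Rora* and *Id2* were 4.49-, 3.41- and 3.53-fold higher. *Blk*, which encodes a tyrosine kinase also found in B cells, was 3.18-fold higher. Of its UMIs, 237 of 393 in kidney and 110 of 132 in 28W spleen lay in the clusters with the highest B cell markers (8 and 10), and the part of B cells in its ratio was not tested.

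*Maf* and *Rora* were spread over the kidney clusters. Without clusters 4 and 12, *Maf* was still 4.23-fold higher in kidney than in 28W spleen (3.69 to 4.87) and *Rora* 3.52-fold (3.22 to 3.85). Of *Maf* UMIs, 19.9% (17.6 to 22.3) lay in the pair of clusters, above the 15.0% of all UMIs they held. Of *Rora* UMIs, 12.1% (10.8 to 13.6) lay there, below that share. The highest kidney level of *Maf* was in cluster 7 (130 CPM), which also had the highest kidney tubule markers (2949 CPM).

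Among 17 surface and signature genes with enough UMIs, 11 were higher in kidney, 2 lower and 4 within 2-fold, against 15.3% and 2.91% of all genes. *Ccr6* had 47, 82 and 317 UMIs (4.14-fold, kidney over 28W spleen). *Kcnk1*, a potassium channel gene, had 2, 0 and 58 UMIs and was at least 20.7-fold higher in kidney than in 28W spleen, where the 0 was set at 3 counts of the library. *Ltb4r1* (9.37-fold), *Tmem176a* (9.84-fold) and *Tmem176b* (10.4-fold) were further examples. Of the 11, 5 had their highest kidney level in cluster 12, the one with the myeloid markers: *Tmem176a* (490 CPM), *Tmem176b* (771 CPM), *Ckb* (369 CPM), *Serpinb1a* (73.2 CPM) and *Ltb4r1* (39.5 CPM). In cluster 7 of the kidney, which had the highest kidney tubule markers, *Tmem176a* was at 378.9 CPM and *Tmem176b* at 645.9 CPM. That cluster held more UMIs of both genes than cluster 12. The part of myeloid or kidney tubule cells in the ratios of these 5 genes was not tested. *Il7r* and *Il6ra*, receptors for interleukin 7 and interleukin 6, were 0.464- and 0.385-fold. Of *Kcnk1* UMIs 60.3% and of *Ltb4r1* UMIs 69.6% lay in clusters 4 and 12.

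Other type 17 cytokines were near the limit of detection. *Il17f* had 1, 0 and 7 UMIs and *Il22* 0, 0 and 4, so neither reached 20. *Tnfsf11* and *Lta* were within 2-fold in both comparisons. *Il17re*, which encodes a receptor chain for the related cytokine interleukin 17C, had 8, 5 and 62 UMIs (13.3-fold, kidney over 28W spleen, 5.39 to 42.3), with 53.2% of kidney UMIs in clusters 4 and 12. *Il17ra*, the shared receptor chain, was 0.624-fold and *Traf3ip2*, its adaptor, 0.979-fold.

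**Figure D5:**
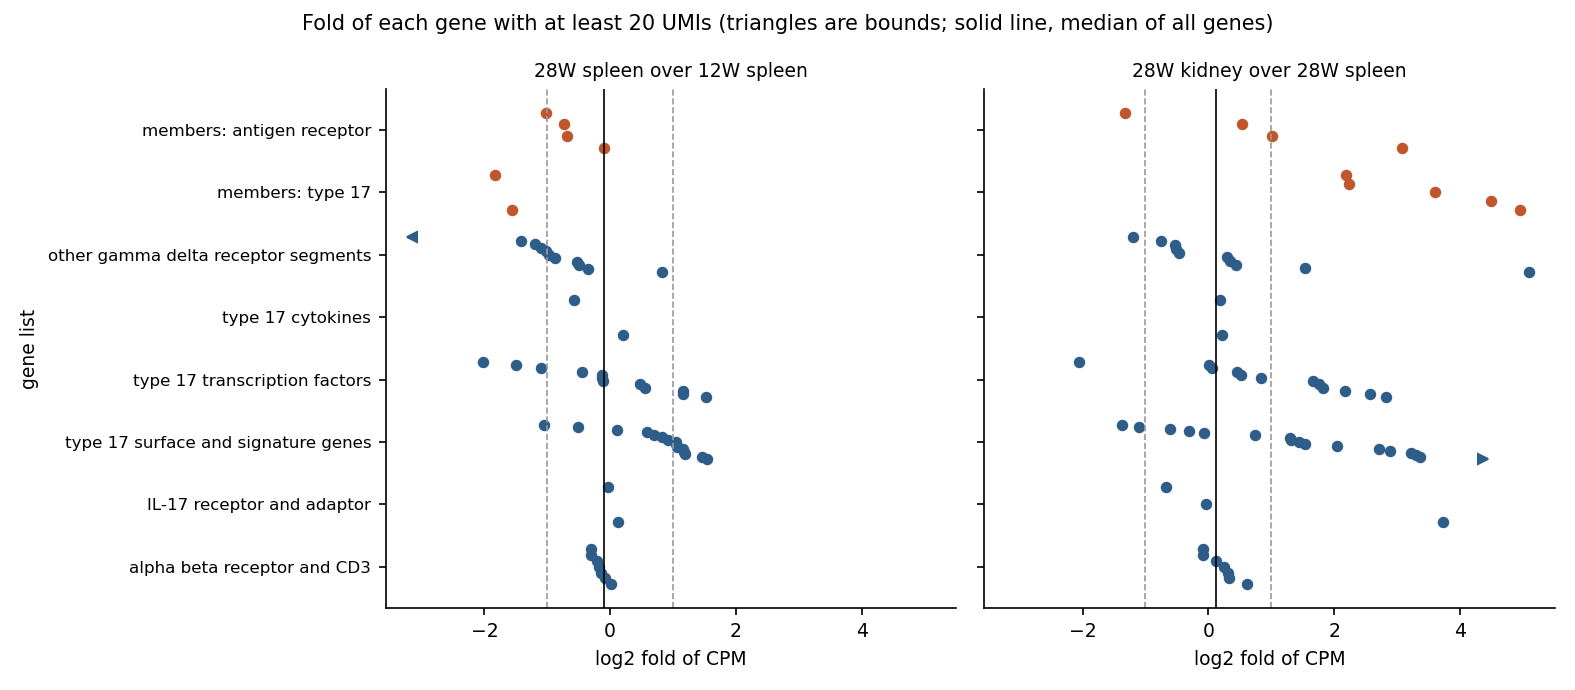
Each point is the log2 ratio of CPM for 1 gene with at least 20 UMIs over both libraries, by gene list, for 28W spleen over 12W spleen (left) and 28W kidney over 28W spleen (right), with dashed lines at 2-fold, a solid line at the median of all genes and triangles for bounds against 0 UMIs. The 5 type 17 genes lie right of the dashed line between organs, while the alpha beta receptor and CD3 genes stay within 2-fold on both sides.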

How the data were processed

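Single-cell RNA sequencing libraries of sorted PD-1+CD44+CD8+ T cells were prepared with the 10x Genomics 5′ v2 kit. Per the labels, processing used Cell Ranger 2.1.1 and R 3.6.1 with GRCm38, and a Cell Ranger vdj pipeline is named in the methods. The clustering method and cell filters are not given in the sources used here. The authors deposited, for each library, the cluster number of each cell and the mean counts of each gene per cluster, scaled so that all columns of a library have the same sum. Their fold changes and p-values were not used. For the 28W spleen, the titles were followed where an age entry gave 12 weeks.

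Every mean was a whole multiple of the smallest value in its column (tolerance 0.001), which returned UMIs. These were summed per library and divided by the library or cluster total (CPM). The 3 tables were normalized separately, so levels across libraries rest on this rescaling. Intervals are exact Poisson, Clopper-Pearson or conditional binomial at 95% and cover counting error only, since UMIs of 1 cell are not independent. A gene with 0 UMIs was given the limit of 3 counts, 0.0864, 0.0937 and 0.100 CPM in the order of libraries used in the text. Mean depth was 4196 to 5040 UMIs per cell. With 1 library per group no test was made, and a gene was called by a ratio of at least 2-fold among genes with at least 20 UMIs over the compared libraries. UMIs are not corrected for length, so shares among segments are shares of UMIs and not of transcripts per length. Likeness was Pearson's r of log2(CPM + 1), with a pseudocount of 1 CPM, for genes with at least 100 UMIs.

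The 9 genes and the gene lists were chosen with earlier results of these data known. Names were drawn from the 9 genes, listed genes with at least 20 UMIs in a library (others of the lists are only counted), the 3 genes outside the 9 most like each, and the 5 leading genes of each library's cluster with the highest summed level. *Pdcd1* and *Cd44*, genes below these limits and the leading genes of kidney cluster 4 were named after their values were seen. A gene that met these rules is not reported here. Of 18992 gene identifiers, 18974 matched GENCODE M21 (GRCm38), which gave positions and segment sequences. The alternatives were other scales, cluster sets and UMI minimums. Steps were tested on simulated data. Python 3.11.15, numpy 2.4.6, pandas 2.3.3 and scipy 1.17.1 were used. The receptor clonotypes were not analysed here.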

Additional observations from a re-analysis of the deposited data

How the results depend on the processing

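The log2 ratios of the summed receptor and type 17 genes kept their direction under the 5 other scales and cluster sets in both comparisons. The summed receptor genes with age were at -0.77 as reported, -1.34 with the deposited means averaged over cells and -0.45 without each library's clusters highest in B cell, myeloid, erythroid or kidney tubule markers. Between organs they were at 0.37 as reported, 0.21 with a total that leaves out receptor, mitochondrial and ribosomal genes, 0.21 without each library's cluster with the most UMIs and -0.27, the opposite sign, without kidney clusters 4 and 12, the alternative added after the data were seen. The summed type 17 genes between organs were at 3.53 as reported and 2.14 without those clusters. Those clusters had the highest sums of the kidney and 28W spleen kept all of its own, so lower values were fixed in advance. Genes at least 2-fold higher with age numbered 612, or 296 with at least 100 UMIs and 1100 with at least 1 UMI, and genes lower with age 435, 185 and 808. Between organs these were 2020, 933 and 3093 higher and 384, 216 and 656 lower. For the single genes, 77 of 88 values stayed within their counting interval and 11 moved beyond it. Ranked by UMIs per cell in place of CPM, 10 of 18 leading clusters held a share of UMIs within the interval and 8 did not, among them *Trdc* in both 28-week libraries and *Il23r* in kidney. The leading cluster can change within the interval, as for *Tcrg-C2* in kidney, from cluster 10 to cluster 11. With Spearman in place of Pearson correlation, 4 of 5 genes had at least 2 of their 3 most alike genes again, and *Tcrg-C2* had 1.

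No paired analysis was possible because each table pools the samples of a group. Values below 20 UMIs, which include *Il17a*, *Il23r* and *Il1r1* in both spleens, have wide counting intervals, and no value here carries variation between mice or preparations.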

Other observations

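Transcripts used as markers of other innate-like lymphocytes were measured beside the 9 genes. *Trav11*, the V segment of invariant NKT cell receptors, had 7, 7 and 26 UMIs in the 12W spleen, the 28W spleen and the kidney, and *Trav1*, that of MAIT cell receptors, had 594, 264 and 549. Neither segment by itself identifies these cells, and the joining segments of their receptors had no UMIs listed, so NKT or MAIT cells are not counted here. *Klrb1c* had 150, 86 and 83 UMIs. Of the 5 innate lymphoid markers, *Areg* was 8.22-fold higher in 28W kidney than in 28W spleen (5.67 to 12.3) and *Kit*, *Ncr1*, *Gata3* and *Il2ra* were within 2-fold. Their sum was highest in cluster 12 of the kidney, at 150 CPM, against 41.1 to 76.8 CPM in the other kidney clusters.

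The constant gene *Tcrg-C4* took 46.9%, 42.5% and 35.9% of gamma constant UMIs in the same order, and *Tcrg-C3* 0.153%, 0.862% and 1.90%. *Tcrg-V5* had 29, 0 and 11 UMIs, so it was at least 8.91-fold lower in 28W spleen than in 12W spleen with the 0 set at 3 counts.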
